A study of Homo sapiens with 19 samples.

Results

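The RNA-seq libraries of this study carry replicate numbers 1, 2 and 3, and the libraries numbered 1 were compared here with the libraries numbered 3 within the same cell pool. The comparison covers 6 of the 9 RNA-seq libraries, 3 with each number, out of 19 samples in the series, and every gene of the count table was eligible: 14566 of 23441 genes passed the filter on low counts and were tested. The cells were 786-O, a kidney cancer line of the clear cell type in which VHL is defective; VHL is the part of a ubiquitin ligase that marks HIF-α proteins for degradation. All 3 pools therefore hold stabilised endogenous HIF-2α, and in none of them does the endogenous HIF1A gene give a full-length protein. The control pool was infected with the empty pRRL vector, the HIF-1α pool with a virus that re-expresses HIF-1α, and the HIF-2α pool with a virus that overexpresses HIF-2α. The vector also carries EGFP, so that reporter is common to all pools, and each pool is a mixture of infected cells and not a clone. The labels and methods give RNA in triplicate but do not say whether a number stands for a culture, a passage or a day, so p-values measure the spread between these libraries only, which may be technical.

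Libraries held 27852754 to 54287621 counts, with 16364 to 17313 genes detected, and levels are given as CPM, counts scaled to the library total after TMM correction for library composition, with no scaling to gene length. HIF1A stood at 169, 1672 and 464 CPM in libraries 1, 2 and 3 of the HIF-1α pool, at 30.5, 37.01 and 152 CPM in the control pool and at 15.3, 30.9 and 17.5 CPM in the HIF-2α pool. Library control 3 was therefore close to HIF-1α 1 for this gene, and counts of viral and endogenous transcripts cannot be told apart. EPAS1, which encodes HIF-2α, stood at 948, 3307 and 878 CPM in the HIF-2α pool, against 457, 226 and 163 CPM in the control pool. Neither gene passed the test between numbers 1 and 3 (edgeR adjusted p of 0.190 for HIF1A and 0.242 for EPAS1), and ARNT and VHL did not either. PAX8, a transcription factor of the renal lineage, ranged from 172 to 365 CPM over the 9 libraries, while CD3E, HBB and HBA1 were at 0 in all of them.

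Cells that run short of an amino acid, or that accumulate unfolded protein in the endoplasmic reticulum, phosphorylate the initiation factor eIF2α. General translation then falls while translation of the transcription factor ATF4 rises, and ATF4 raises genes for amino acid synthesis, amino acid uptake and the charging of tRNAs. Unfolded protein also activates ATF6 and XBP1, which raise the chaperones of the endoplasmic reticulum. TXNIP and ARRDC4 encode α-arrestins that restrain glucose uptake, and both are transcribed by the glucose-sensing factors MondoA and ChREBP.

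Libraries numbered 1 differed from those numbered 3 in all 3 pools along these programmes. Genes of the ATF4 pathway, cytosolic aminoacyl-tRNA synthetases and endoplasmic reticulum chaperones were higher in number 1, with list medians of 2.99-fold, 2.16-fold and 2.48-fold. TXNIP and ARRDC4 were lower, as were 8 of 19 tested genes of renal and epithelial identity and 8 of 21 of the extracellular matrix, while 1 gene of each of these lists was higher and the others were not called. Over all genes, 1817 passed an adjusted p of 0.05 in edgeR's quasi-likelihood test with pool and number as terms (12.5% of those tested), of which 846 were higher in number 1 (5.81%) and 971 lower (6.67%). Among the called genes, 143 were at least 4-fold higher and 400 at least 4-fold lower, and the median log2 difference over all tested genes was -0.001. The counts rest in part on single libraries: they were 453 higher and 654 lower without control 1, 321 and 488 without control 3, and 274 and 333 without HIF-1α 1. A lower level in bulk RNA can mean fewer cells that express a gene or less RNA per cell, and these cannot be told apart.

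The difference was shared in part by the pools, which have no library in common. Of the 1817 called genes, 1808 had the same sign in all 3 pools and 1533 had no overlap between the 3 libraries of each number (747 higher, 786 lower). Without overlap stood 3525 of all tested genes (24.2%). Because the call itself favours genes that move alike, the genes with at least 10 CPM on average are the fairer description: of 9510 such genes, 45.7% had the same sign in all 3 pools. Across these genes, which are not independent replicates, the differences of 2 pools had Pearson correlations of 0.531 for control with HIF-1α, 0.570 for control with HIF-2α and 0.570 for HIF-1α with HIF-2α (Spearman 0.371, 0.467 and 0.395). Differences between numbers held 41.6% of the summed variance of log2 expression, differences between pools 37.2%, and the remainder was 21.2%. Noise alone also gives some genes of the same sign and some variance to each term, and no such level was subtracted. In the same fit, 7.96% of genes were called between the HIF-1α pool and the control pool and 0.254% between the HIF-2α pool and the control pool, contrasts that use the same libraries.

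AARS, the cytosolic alanyl-tRNA synthetase (GRCh37 chr16:70285886-70323610, minus strand), marked this difference in each pool. It stood at 659, 664 and 604 CPM in number 1 of the control, HIF-1α and HIF-2α pools and at 163, 223 and 175 CPM in number 3. The groups did not overlap, and every library of number 1 lay more than 2-fold above every library of number 3. The log2 difference was 1.78 (SE 0.20, edgeR adjusted p = 0.00133), a 3.44-fold difference. Number 2 gave 286, 218 and 281 CPM, so its HIF-1α library was below the HIF-1α library of number 3 while the others lay between.

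The upstream sequences of genes that stood out in the ATF4 and chaperone lists are shown because they hold the elements through which these programmes are known to act. The C/EBP-ATF composite element, searched as TGATGNAA on both strands, is the site at which ATF4 dimers bind, and the endoplasmic reticulum stress element, searched as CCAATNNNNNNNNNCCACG on both strands, is the site of ATF6 with NF-Y. Each stretch is 120 bases from RefSeq (GRCh38.p14), written 5′ to 3′ on the strand of the gene, with the match in capitals. It lies at chr16:70289624-70289743 (minus strand) for AARS, chr7:97872409-97872528 (minus) for ASNS, chr15:40953221-40953340 (plus) for CHAC1 and chr9:125241344-125241463 (minus) for HSPA5. The matches begin 187, 68, 209 and 66 bases upstream of the annotated start, and those of AARS and CHAC1 read on the opposite strand.
AARS: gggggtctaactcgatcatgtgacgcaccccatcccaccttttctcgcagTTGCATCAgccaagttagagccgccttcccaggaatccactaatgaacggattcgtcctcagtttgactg
ASNS: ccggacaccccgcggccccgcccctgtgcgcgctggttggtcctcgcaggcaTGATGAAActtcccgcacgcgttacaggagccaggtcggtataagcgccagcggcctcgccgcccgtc
CHAC1: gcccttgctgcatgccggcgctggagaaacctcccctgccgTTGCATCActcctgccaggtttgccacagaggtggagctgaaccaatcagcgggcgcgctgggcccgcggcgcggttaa
HSPA5: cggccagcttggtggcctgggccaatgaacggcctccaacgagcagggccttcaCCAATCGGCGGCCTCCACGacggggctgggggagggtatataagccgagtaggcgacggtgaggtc

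In windows from 250 bases before to 50 bases after the start, the composite element occurred in 2.94% of the 11167 tested genes with a RefSeq promoter. It occurred in 7.59% of the 659 such genes called higher in number 1 and in 3.13% of the 735 called lower. Of the synthetase genes with a promoter, 7 of 15 held it, and all 7 were among the 10 called ones. Of the ATF4 pathway genes, 9 of 29 held it, 8 of them called. The called genes of both lists are among the 659 called higher, so these shares of the composite element are not separate observations. The stress element, a motif added after the data were seen, occurred in 16 of the 11167 genes (0.143%). Of genes called higher, 8 held it (1.21%), and of genes called lower, 1 (0.136%). Those 8 include the 7 of 18 chaperone genes that held it, so these shares are not separate observations. These matches describe letters in a window and were not tested as binding sites.

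The ATF4 pathway list, which holds genes of amino acid synthesis and uptake but also stress factors and other targets, had the largest list median, 1.58 on the log2 scale. Of 37 tested members, 26 were called higher, none was called lower, and 25 had no overlap between the numbers. Over all tested genes 24.2% had no overlap, and of the 1817 called genes 1533 had none. The list medians were 1.58, 1.55 and 1.14 in the control, HIF-1α and HIF-2α pools. Without 1 library at a time, 20 to 25 members were called.

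ASNS, which makes asparagine, stood at 305, 286 and 319.9 CPM in number 1 and at 63.7, 53.3 and 67.1 CPM in number 3 (log2 difference 2.31, SE 0.17, edgeR adjusted p = 0.000199). PSAT1, a transaminase of serine synthesis, gave 556, 572 and 709.9 CPM against 94.3, 63.3 and 87.1 CPM. For both genes the spread among pools was small beside the distance between the numbers. CHAC1, which degrades glutathione, gave 38.9, 40.03 and 31.8 CPM against 3.64, 4.02 and 2.74 CPM, a 10.7-fold difference (log2 3.42, SE 0.21, edgeR adjusted p = 9.25e-05). DDIT3, which encodes the stress factor CHOP, was at 85.9, 79.3 and 54.5 CPM in number 1 and at 15.7, 21.4 and 19.1 CPM in number 3, and SESN2, a leucine sensor of the mTORC1 pathway, rose by 1.82 on the log2 scale (SE 0.25, edgeR adjusted p = 0.00277).

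Of the 8 amino acid carrier genes (SLC symbols) on this list, 7 were called higher, and SLC38A2 was not (log2 difference 0.69, edgeR adjusted p = 0.243). The calls of SLC7A5 and SLC1A5 were lost in fits without 1 library (edgeR adjusted p of 0.0543 to 0.134 without control 1, control 3, HIF-1α 1 or HIF-2α 3 for SLC7A5, and of 0.0773 to 0.113 without control 3, HIF-1α 1 or HIF-2α 3 for SLC1A5). SLC7A11, the cystine carrier, stood at 223, 448 and 294 CPM in number 1 and at 23.1, 33.6 and 48.7 CPM in number 3 (log2 difference 3.18, SE 0.32, edgeR adjusted p = 0.000959). SLC6A9, a glycine carrier, gave 36.6, 20.3 and 38.5 CPM against 1.36, 0.878 and 3.51 CPM. SLC3A2, the heavy chain that SLC7A11 and SLC7A5 share, gave 909, 891 and 644 CPM against 339, 112 and 292 CPM. CTH, which makes cysteine from cystathionine, and PCK2, mitochondrial phosphoenolpyruvate carboxykinase, had log2 differences of 3.02 and 1.94.

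ATF4 itself stood at 711, 546 and 700 CPM in number 1 and at 496, 476 and 567 CPM in number 3, with a log2 difference of 0.34 that missed the threshold (edgeR adjusted p = 0.257). ATF4 is controlled mainly at translation, which RNA counts do not measure. ATF3 gave 49.2, 46.9 and 49.9 CPM in number 1, but 16.4, 9.03 and 47.6 CPM in number 3 (edgeR adjusted p = 0.0818); without library HIF-2α 3 its adjusted p was 0.00480. TRIB3, another ATF4 target, gave 517, 388 and 352 CPM against 219, 189.5 and 403 CPM and missed the threshold as well (edgeR adjusted p = 0.117), with an adjusted p of 0.0272 without HIF-2α 1. For both genes the control and HIF-1α pairs lay higher in number 1 and the HIF-2α pair did so by little or not at all, a difference between pools that was not tested.

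**Figure D1:**
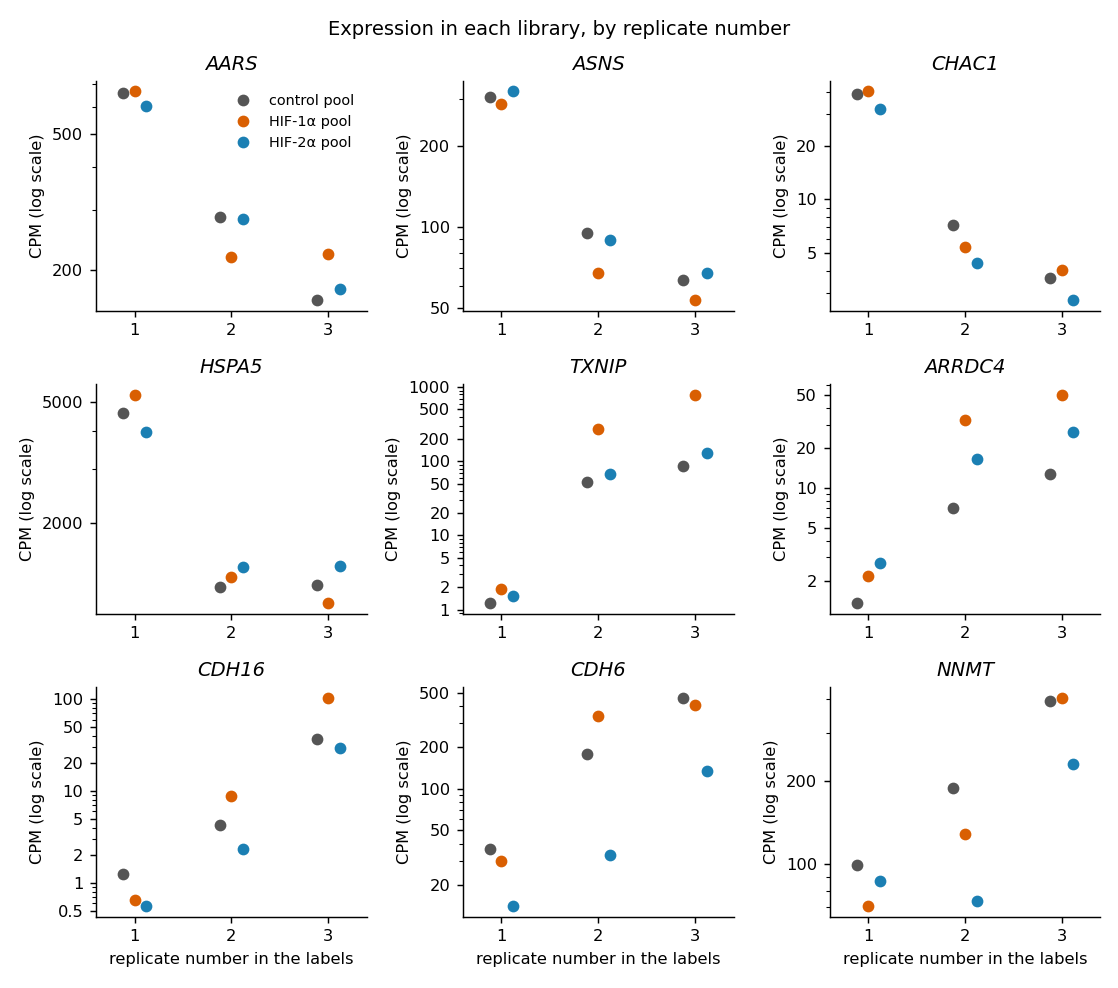
Normalised expression (CPM, log scale) of 9 genes in each library, by the replicate number in the labels, with 1 point per cell pool. AARS, ASNS, CHAC1 and HSPA5 were highest in all 3 libraries numbered 1, while TXNIP, ARRDC4, CDH16, CDH6 and NNMT were lower in number 1 than in number 3 of every pool; in the HIF-2α pool NNMT was lowest in number 2, and number 2 lay near number 3 for HSPA5.

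Cytosolic aminoacyl-tRNA synthetases, the enzymes that charge tRNAs for translation, had 13 of 20 members called higher and none lower, with a median log2 difference of 1.11. All 13 had no overlap between the numbers, as had 1533 of the 1817 called genes. WARS had the largest difference, at 384, 448 and 253 CPM against 71.8, 69.8 and 77.1 CPM (log2 2.29, SE 0.22, edgeR adjusted p = 0.000861). GARS gave 795, 754 and 761 CPM against 249.6, 199 and 267 CPM. MARS, SARS, IARS, YARS and CARS had log2 differences of 1.67, 1.42, 1.41, 1.39 and 1.18. The 7 synthetase genes that were not called had log2 differences from -0.23 to 0.38, among them HARS, KARS, RARS, DARS, QARS and the pair FARSA and FARSB, which encode the subunits of the phenylalanyl enzyme. Of the 7, QARS had the lowest value, and its libraries in number 3 spread from 129.9 to 229 CPM.

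The mitochondrial synthetases, encoded by other genes, had a median of 0.08. Of 17 members, 1 was called higher (CARS2) and 1 lower (RARS2), a share of 11.8% near the 12.5% over all genes. Both calls were lost when any 1 of the 6 libraries was left out, with edgeR adjusted p-values of 0.0588 to 0.127 for CARS2 and 0.0589 to 0.177 for RARS2.

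Endoplasmic reticulum chaperones and their partners were called higher in 18 of 19 cases, with a median log2 difference of 1.31, and all 19 members were above 0 in every pool. HSPA5, the Hsp70 of this compartment, stood at 4600, 5284 and 3963 CPM in number 1 and at 1247, 1085 and 1441 CPM in number 3 (log2 difference 1.88, SE 0.21, edgeR adjusted p = 0.00133). HYOU1, its nucleotide exchange factor, gave 779, 1007 and 789.5 CPM against 179.6, 151 and 199 CPM. SDF2L1 and HERPUD1, which act in folding and in disposal of misfolded protein, had log2 differences of 2.07 and 1.42, and the oxidoreductase PDIA4 one of 1.31. SEC61B, a subunit of the translocon, was the member not called, with a log2 difference of 0.28 (edgeR adjusted p = 0.357). Leaving out 1 library lowered the count to between 12 and 16. XBP1 and CALR had log2 differences of 0.69 and 1.01, and their calls were lost without HIF-1α 1 (edgeR adjusted p of 0.139 and 0.185) and in several of the other fits without 1 library.

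Heat shock proteins of the cytosol, listed with the mitochondrial chaperonins HSPD1 and HSPE1, respond to unfolded protein outside the endoplasmic reticulum and had 0 of 13 members called by edgeR, 2 higher at an unadjusted p under 0.05, and 1 higher by DESeq2. Their median log2 difference was 0.22. By pool the medians were -0.185, 0.901 and -0.108 in the control, HIF-1α and HIF-2α pools, where 5, 13 and 4 of the 13 members were above 0. This difference between pools was not tested. HSPA6, an inducible Hsp70 gene that was not on that list, was among the genes with the largest rise, at 5.497, 70.5 and 20.3 CPM in number 1 and at 0.812, 0.494 and 1.67 CPM in number 3, so that its level varied 12.8-fold among the libraries of number 1. The NRF2 list, genes of the oxidant response, had 4 of 18 called higher and 1 lower with a median of 0.72; SLC7A11, a member of both lists, led it. NQO1 stood at 345, 335 and 339 CPM against 243, 113 and 128 CPM, while AKR1C3 went the other way, at 19.8, 42.2 and 16.1 CPM against 75.4, 76.3 and 26.5 CPM. Each lost its call in 3 of the 6 fits without 1 library (highest edgeR adjusted p of 0.0831 for NQO1 and 0.0789 for AKR1C3, without HIF-1α 1). Of 14 p53 targets, 11 were above 0, 1 was called higher by edgeR, 3 were higher at an unadjusted p under 0.05, and 2 were higher by DESeq2. The gene called by edgeR was GADD45A, with a log2 difference of 1.32 (edgeR adjusted p = 0.0122, 0.0676 without control 3 and 0.0547 without HIF-1α 1). CDKN1A gave 819, 319 and 432.5 CPM against 313, 159 and 310 CPM (edgeR adjusted p = 0.078, DESeq2 adjusted p = 0.022).

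**Figure D2:**
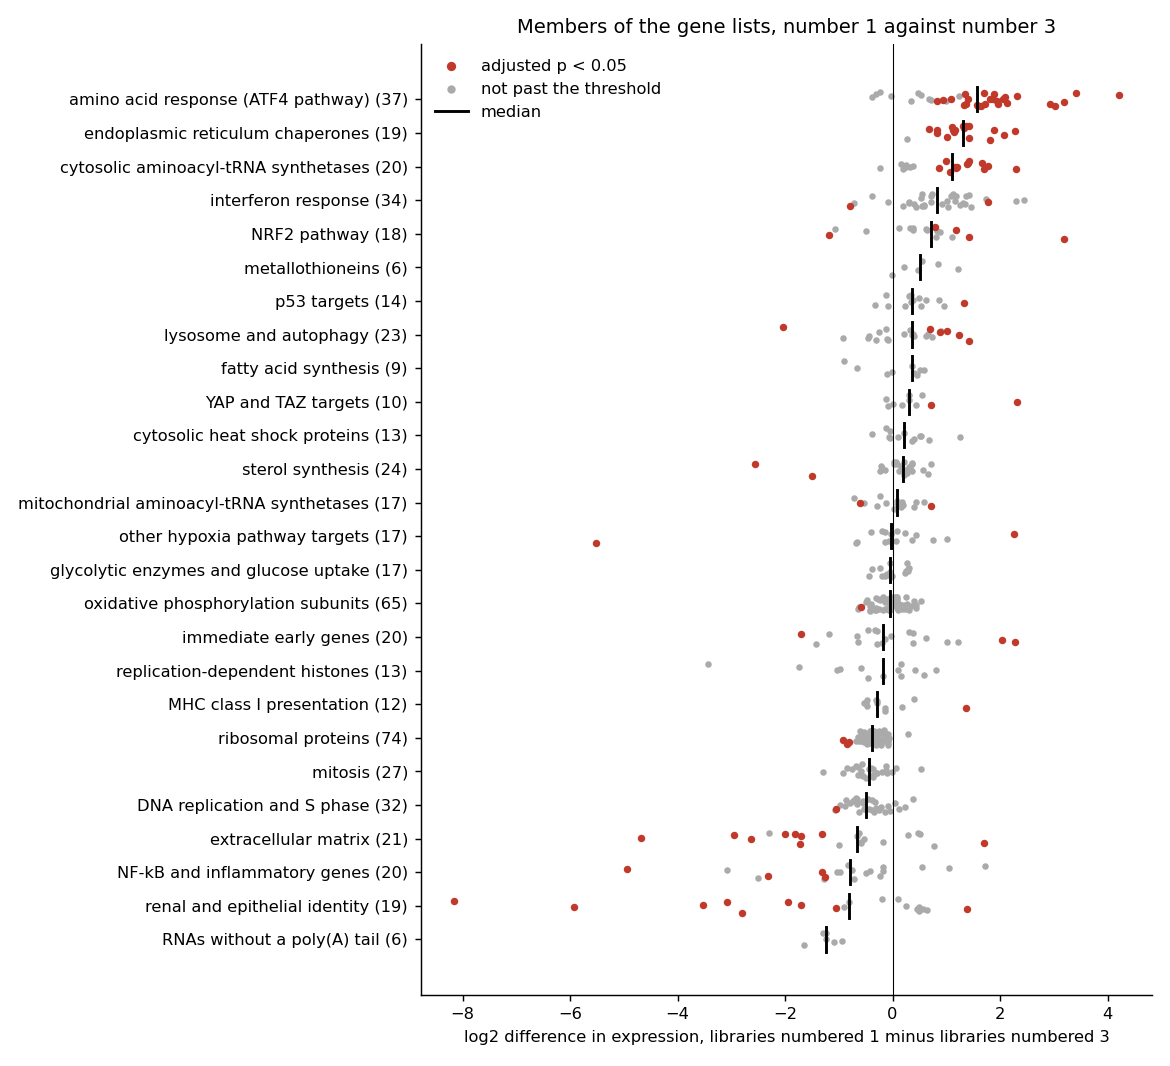
Log2 difference between libraries numbered 1 and 3 for each tested member of 26 gene lists, with the number of tested members in brackets, called genes in red and the list median as a black bar. The ATF4 pathway, endoplasmic reticulum chaperones and cytosolic synthetases have medians of 1.58, 1.31 and 1.11, while the extracellular matrix and renal and epithelial lists have medians of -0.66 and -0.82 with a few members far below.

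TXNIP and ARRDC4, the pair of glucose-responsive arrestins, were lower in number 1. TXNIP stood at 1.22, 1.89 and 1.54 CPM in number 1, at 52.6, 272 and 66.6 CPM in number 2 and at 86.2, 795 and 129 CPM in number 3. Every library of number 1 lay far below every other library. The log2 difference was -7.08 (SE 0.52, edgeR adjusted p = 0.000217; GRCh37 chr1:145438490-145442635), and TXNIP was also higher in the HIF-1α pool than in the control pool in this fit, by 2.28 (edgeR adjusted p = 0.0348). ARRDC4, its paralog (GRCh37 chr15:98503933-98517063), gave 1.35, 2.15 and 2.73 CPM in number 1 against 12.8, 50.5 and 26.2 CPM in number 3, a log2 difference of -3.65 (SE 0.33, edgeR adjusted p = 0.000626). Glycolytic enzymes and glucose uptake genes had 0 of 17 members called by edgeR, 0 at an unadjusted p under 0.05 and 0 by DESeq2, with a median of -0.04. LDHA stood at 1530, 1579 and 1700 CPM in number 1 and at 2967, 1284 and 2152 CPM in number 3.

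Genes of renal and epithelial identity were called in 9 of 19 cases, 8 lower and 1 higher in number 1, with a median of -0.82. The list was split: 8 members were above 0, and the medians were -0.23, -0.45 and -1.02 in the control, HIF-1α and HIF-2α pools. In these pools 7, 7 and 9 members were above 0. CDH16, the kidney-specific cadherin, stood at 1.25, 0.653 and 0.555 CPM in number 1 and at 37.1, 104 and 29.8 CPM in number 3 (log2 difference -5.92, SE 0.45, edgeR adjusted p = 0.000248). CDH6, another cadherin of the nephron, gave 36.6, 30.0 and 14.1 CPM against 459, 406 and 136 CPM. For these genes no library of number 1 reached the lowest of number 3.

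VCAM1, an adhesion molecule, fell in each pool but from different levels: 53.8, 80.1 and 7.31 CPM in number 1 and 293, 869 and 44.2 CPM in number 3, so that the libraries of the numbers overlapped across pools. NNMT, an enzyme abundant in clear cell carcinoma, gave 99.9, 70.5 and 87.3 CPM against 393, 403 and 232 CPM. CDH1, E-cadherin, was at 0, 0.0242 and 0 CPM in number 1 and at 0.943, 7.39 and 1.05 CPM in number 3, a level too low for a fold to be given. PAX2, a renal transcription factor, had a log2 difference of -1.05, whereas PAX8 had one of 0.50 that missed the threshold (edgeR adjusted p = 0.184). The calls of AQP1, a water channel that was lower, and CUBN, a proximal tubule receptor that was higher, were lost in 3 and 5 of the 6 fits without 1 library (highest edgeR adjusted p of 0.103 without HIF-1α 1 and 0.101 without control 3). The summed level of the whole list was 5660 to 7337 CPM in number 1 and 7434 to 8900 CPM in number 3, without overlap but with a narrow gap. Its most abundant member averaged 5040 CPM over the 9 libraries, so 1 gene made most of this sum.

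The extracellular matrix list had 8 of 21 members called lower and 1 higher, with a median of -0.66. SPARC, a secreted matrix protein, stood at 419.8, 388 and 435 CPM in number 1 and at 994, 2141 and 1089 CPM in number 3 (log2 difference -1.72, SE 0.29, edgeR adjusted p = 0.00647). COL4A2 and COL4A1, the collagen chains of basement membranes, gave log2 differences of -1.32 and -1.71. TNC, tenascin C, went the other way, at 246, 349 and 105 CPM against 44.8, 124 and 47.1 CPM, a call lost without control 3 (edgeR adjusted p = 0.0681). Without HIF-1α 1 the calls lower numbered 4, and the calls of SPARC and COL4A1 were among those lost (edgeR adjusted p of 0.0514 and 0.0552). NF-kB and inflammatory genes had 4 of 20 called lower, led by CCL2, a monocyte chemokine, at 0.181, 0.0968 and 0.0965 CPM against 5.11, 1.98 and 4.77 CPM. SOD2, the mitochondrial superoxide dismutase, gave 54.2, 45.6 and 40.5 CPM against 101, 382 and 318 CPM. The number called lower was 3 to 8 without 1 library, with the highest value without HIF-1α 3, and without HIF-2α 3 the list's median log2 difference was 0.02 and 2 members were called higher. In addition, NFKBIA, an inhibitor of NF-kB and one of the 4, lost its call without any 1 of the libraries numbered 1 or 3 except HIF-1α 3 (edgeR adjusted p of 0.0643 to 0.0986).

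The genes with the largest differences were named by a rule: called, at least 10 CPM on average in the higher number, and no overlap between the numbers. The 12 largest rises included 4 of the ATF4 list (SLC6A9, CHAC1, SLC7A11 and CTH). PAPPA2, a protease that releases insulin-like growth factors from their binding proteins, had the largest rise, from 0, 0.476 and 0.641 CPM in number 3 to 20.9, 26.8 and 20.9 CPM in number 1 (log2 difference 6.31, SE 0.72, edgeR adjusted p = 0.00133). GPR1, a chemerin receptor, gave 48.6, 41.7 and 27.2 CPM against 1.68, 1.86 and 1.49 CPM, and HMGA1, a chromatin protein, gave 138, 194 and 34.2 CPM against 14.2, 11.1 and 5.77 CPM. ALOX5AP, which presents arachidonate to 5-lipoxygenase, KIF26B, SLFN5 and ATP6V0D2 complete the rises, with log2 differences of 4.17, 2.97, 3.00 and 4.61. ATP6V0D2, a subunit of the vacuolar proton pump, was at 44.2, 12.7 and 1.93 CPM in number 1, and its call was lost without control 1, control 3 or HIF-1α 1 (edgeR adjusted p of 0.0536, 0.0658 and 0.0642); that of SLFN5 was lost without HIF-1α 1 (edgeR adjusted p = 0.0513).

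The 12 largest falls were led by LBP, the lipopolysaccharide binding protein, at 0.285, 0.0484 and 0.0483 CPM in number 1 and at 29.4, 117 and 1.67 CPM in number 3. Its log2 difference of -7.95 (SE 0.97, edgeR adjusted p = 0.00175) covers a 70.1-fold spread among the libraries of number 3. MMP7, the metalloproteinase matrilysin, gave 0.181, 0.315 and 0.121 CPM against 31.3, 59.1 and 10.3 CPM, and CLDN2, a claudin of leaky tight junctions, gave 0.622, 0.605 and 0.169 CPM against 161, 34.7 and 10.1 CPM. FXYD2, the kidney regulator of the sodium pump, and BCAM, a laminin receptor, had log2 differences of -5.04 and -5.13. CFI, complement factor I, SEMA6B, a semaphorin, MYH13, WISP2 and LOC100422737, an RNA that was not matched to the annotation, had log2 differences of -5.98, -5.13, -5.82, -5.38 and -7.46. In number 1 LOC100422737 held only 1, 2 and 4 counts and MYH13 5, 8 and 10, so the sizes of their falls are uncertain. WISP2 was in part a gene of 1 pool, at 39.0 CPM in HIF-1α 3 but 0.812 and 1.82 CPM in the other libraries of number 3, and its call was lost without the HIF-1α pool (edgeR adjusted p = 0.0626).

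**Figure D3:**
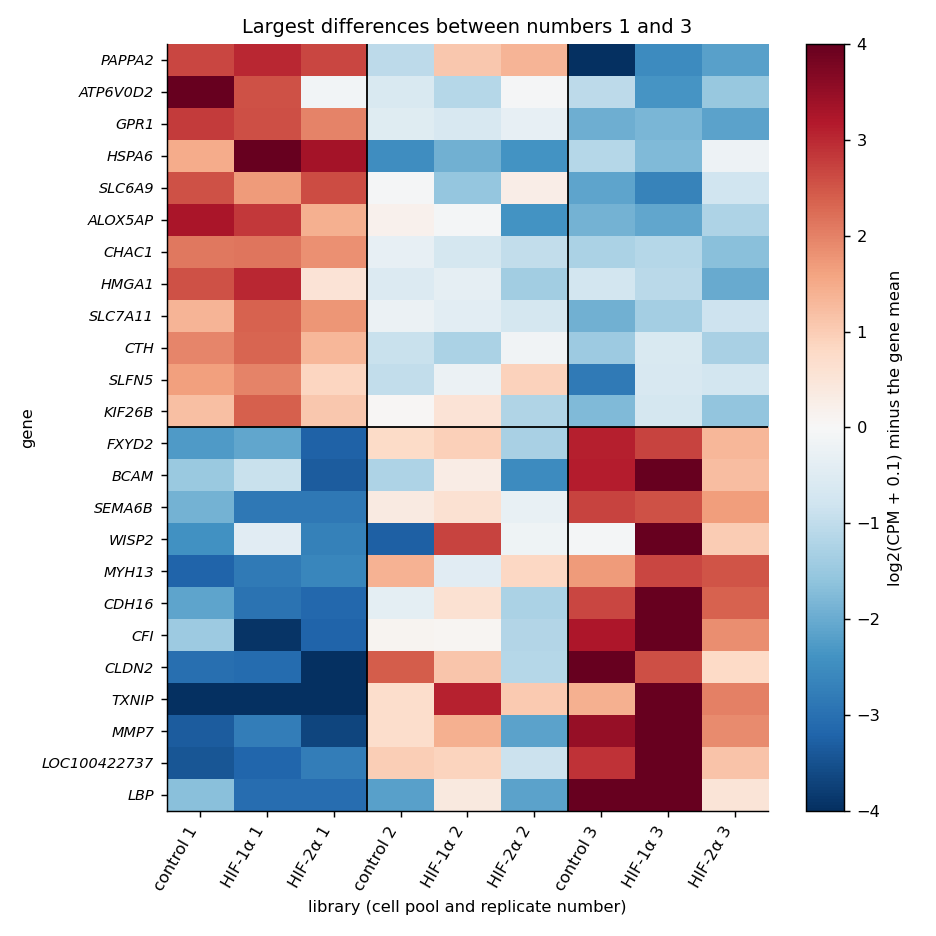
The 12 largest rises (upper rows) and 12 largest falls (lower rows) between libraries numbered 1 and 3, as log2(CPM + 0.1) minus the mean of the gene over the 9 libraries, with colours limited to -4 and 4 and libraries grouped by replicate number. The genes were chosen for no overlap between numbers 1 and 3, so the contrast in colour between these numbers follows from the choice. Libraries numbered 2 are mostly paler, an exception being HSPA6, which was lowest in number 2 of every pool (0.258, 0.428 and 0.285 CPM).

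Libraries numbered 2, which the comparison did not use as a group, lay between the others for most called genes, an order that choosing genes for a large difference between numbers 1 and 3 itself favours. Of the 846 genes higher in number 1, 671 had a number 2 mean between those of numbers 1 and 3, with a median at 36.5% of the way from 3 to 1. Of the 971 lower genes, 803 were between, with a median at 51.5%. Between numbers 1 and 2, 1022 genes were called (7.02%; 538 higher and 484 lower in number 1), and between 2 and 3, 637 (4.37%; 220 higher and 417 lower in number 2). Of the 37 ATF4 pathway genes, 25 were called in either direction between 1 and 2 and 2 between 2 and 3. Ribosomal protein genes as a list were lowest in number 2: the median log2 difference was 0.53 for number 1 minus 2 and -0.89 for number 2 minus 3, and 43 of 74 were called lower in 2 than in 3. Between numbers 1 and 3, 3 of 74 were called lower in number 1, with medians of -0.46, -0.62 and -0.02 in the control, HIF-1α and HIF-2α pools and 35 members above 0 in the HIF-2α pool. RPL13A, one of the 3, was lowest in number 2 in the HIF-1α pool alone: it gave 99.1, 83.4 and 93.5 CPM in number 1, 135, 72.2 and 101 CPM in number 2 and 205, 189 and 129.5 CPM in number 3, and its call was lost without any 1 of the libraries numbered 1 or 3 except HIF-2α 3 (edgeR adjusted p of 0.0505 to 0.111). FOSB, an immediate early gene, stood at 108, 109.6 and 33.8 CPM in number 2, against 0.658 to 10.9 CPM in the other 6 libraries, so all 3 pools set number 2 apart.

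Other lists moved in 1 pool more than in the others, and with 1 library per pool and number a difference between pools could not be tested. DNA replication genes had 1 of 32 called lower (GINS1, lost without control 3 at an edgeR adjusted p of 0.0795) and mitosis genes 0 of 27 by edgeR (5 lower at an unadjusted p under 0.05, 3 lower by DESeq2). Their medians were -1.58 and -1.43 in the control pool, 0.28 and -0.37 in the HIF-1α pool and -0.17 and 0.26 in the HIF-2α pool. CDK1, the kinase that drives mitosis, stood at 58.1 CPM in control 1 against 171 CPM in control 3, and at 139.7 CPM in HIF-2α 1 against 153 CPM in HIF-2α 3. Interferon response genes had medians of 2.00, 0.58 and -0.94 in the control, HIF-1α and HIF-2α pools, and 33, 26 and 4 of 34 members were above 0. SAMD9L, one of the members, was called higher, and its call was lost in 5 of the 6 fits without 1 library (edgeR adjusted p of 0.0607 to 0.198). Sterol synthesis genes had 2 of 24 called lower and fatty acid synthesis genes 0 of 9 by edgeR (at an unadjusted p under 0.05, 2 were higher and 1 lower, and DESeq2 called 1 lower).

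**Figure D4:**
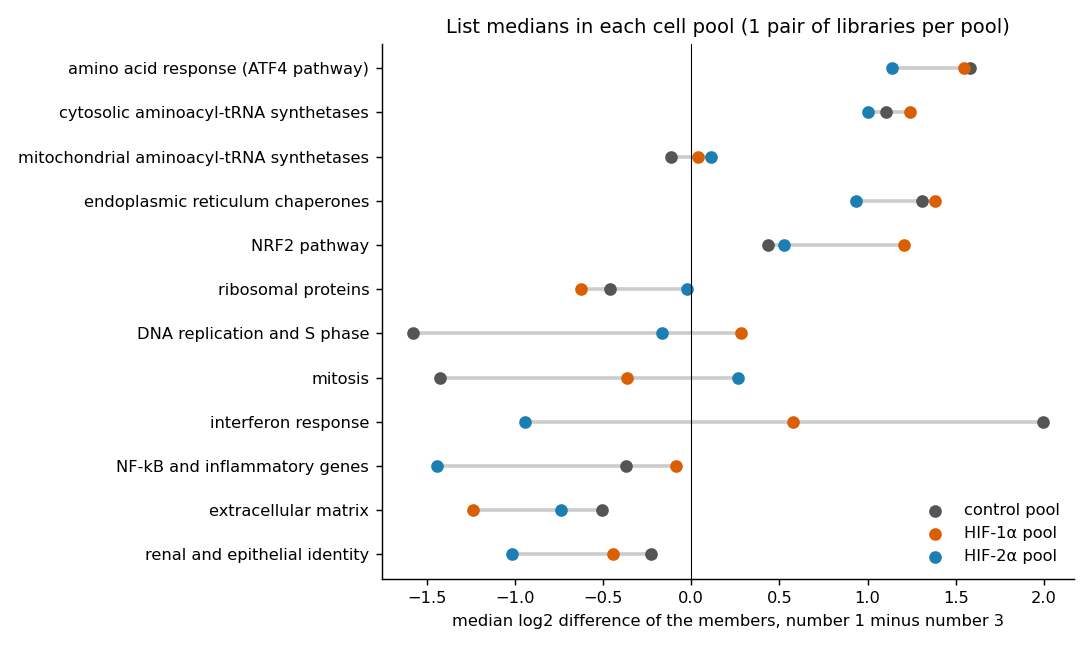
Median log2 difference between numbers 1 and 3 for 12 gene lists, in each cell pool, with 1 pair of libraries per point. The ATF4 pathway, cytosolic synthetase and chaperone medians lie between 0.94 and 1.58 in all pools, whereas the interferon median runs from -0.94 in the HIF-2α pool to 2.00 in the control pool.

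Lysosome and autophagy genes had 26.1% of 23 members called, 5 higher and 1 lower, the last being GABARAPL1, an autophagosome protein, which stood at 38.6, 32.0 and 20.9 CPM against 98.9, 162 and 109 CPM (log2 difference -2.04, SE 0.23, edgeR adjusted p = 0.00135). The 5 higher calls became 0 without control 3 or HIF-1α 1. Immediate early genes had 15% of 20 members called, near the 12.5% over all genes, 2 higher and 1 lower, with a median of -0.17. KLF4 was higher, at 45.5, 62.5 and 26.0 CPM against 9.19, 6.88 and 9.67 CPM, and JUNB was lower, at 51.3, 39.9 and 37.1 CPM against 88.3, 189 and 156 CPM. FOSB, also called higher, lost its call without control 1, control 3, HIF-1α 1 or HIF-1α 3 (edgeR adjusted p of 0.0572 to 0.143). Of 10 YAP and TAZ targets, 2 were called higher and none lower, with a median of 0.31. ANKRD1, one of them, gave 119, 84.5 and 214 CPM against 23.8, 16.5 and 43.3 CPM. TAP2, a peptide transporter of antigen presentation, was the only called gene of 12 in the MHC class I list, with a log2 difference of 1.37. Oxidative phosphorylation subunits had 1 of 65 called (COX7C, lower), and that call was lost without any 1 of the libraries numbered 1 or 3 except HIF-2α 1 (edgeR adjusted p of 0.0700 to 0.190). Metallothioneins had 0 of 6 by edgeR (3 higher at an unadjusted p under 0.05, 2 higher by DESeq2). Of 17 other hypoxia targets, 11.8% were called, near the 12.5% over all genes: NDUFA4L2 higher and CA9, carbonic anhydrase IX, lower. The call of NDUFA4L2 was lost without control 1, control 3, HIF-2α 1 or HIF-2α 3 (edgeR adjusted p of 0.0568 to 0.107). CA9 stood at 0, 8.35 and 0.121 CPM in number 1 and at 14.4, 67.1 and 0.692 CPM in number 3, with 176 CPM in HIF-1α 2, and its call was lost without any 1 of the libraries numbered 1 or 3 except HIF-1α 3 (edgeR adjusted p of 0.0543 to 0.185).

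By pool-centred Pearson correlation with AARS over the 9 libraries, given as a description, the most alike of the genes with at least 10 CPM were BFAR (0.996), PCK2 (0.993), XPNPEP3 (0.989), MICAL1 (0.988) and IARS (0.986), followed by PODXL, YARS, CHAC1, CARS and GPR1 (0.984 to 0.985). BFAR followed AARS with small steps, from 119 to 151 CPM in number 1 and from 101 to 122 CPM in number 3, and its log2 difference of 0.26 was not called (edgeR adjusted p = 0.278). PODXL, podocalyxin, had a log2 difference of 2.48. The calls of XPNPEP3 and MICAL1 were lost in 4 of the 6 fits without 1 library (highest edgeR adjusted p of 0.0788 and 0.109).

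Several properties that are not programmes moved with the number. Genes called lower in number 1 had a median GC content of 53.2% and a median length of 3.32 kb, against 47.8% and 3.82 kb for all tested genes, and a median level of 9.08 CPM against 23.8 CPM. Genes called higher had 46.9%, 4.21 kb and 31.4 CPM. With the genes divided by length into 5 equal groups, the median log2 difference ran from -0.27 in the shortest to 0.33 in the longest group in the control pool, but from -0.02 to 0.03 in the HIF-1α pool and was 0.04 in both outer groups in the HIF-2α pool. By chromosome it ran from -0.25 on chromosome 19 to 0.22 on chromosome 13. RNAs without a poly(A) tail, which the selection should remove, had a median of -1.25 over 6 tested genes and 0 calls by edgeR (3 lower at an unadjusted p under 0.05, 0 by DESeq2), with summed levels of 1.19 to 2.82 CPM in number 1 and 3.38 to 6.62 CPM in number 3. Replication-dependent histones had 0 of 13 called by edgeR (2 lower at an unadjusted p under 0.05, 0 by DESeq2). Markers of other cell types summed to 8.22 to 9.99 CPM in number 1 and 17.6 to 22.04 CPM in number 3 over 18 genes, 3 of them at 0 throughout; SNAP25 made most of the sum. The part of these in the differences above was not tested.

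A HIF-2α peak of the control pool lay within 10 kb of an annotated start for 5.21% of tested genes, for 4.91% of genes called higher in number 1 (95% Wilson interval 3.64 to 6.59) and for 10.6% of those called lower (8.80 to 12.7). For HIF-1α peaks of the HIF-1α pool the shares were 34.1%, 32.5% (29.4 to 35.7) and 30.4% (27.6 to 33.4). The peak lists come from 1 ChIP-seq library per antiserum and pool, and the intervals cover counting error only.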

How the data were processed

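Gene expression was measured by RNA-seq on poly(A)-selected RNA with a directional library kit. Per the labels and the methods, the authors trimmed reads with Trim Galore 0.3.3, aligned them to GRCh37 with Tophat 2.0.8b and bowtie 1.0.0, and counted uniquely mapping fragments on UCSC genes with HTSeq 0.5.4p3 in intersection-strict mode. The counts they deposited are whole numbers for each gene symbol and library, before any scaling; the strand setting of the counting is not given in the sources used here, so a gene and an antisense partner may share reads. Reads of near-identical paralogs are lost by unique mapping. The deposited peak positions hold no score or signal.

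All 9 libraries entered 1 fit in edgeR 4.0.16 (R 4.3.3), with TMM scaling, low counts filtered by edgeR's default (filterByExpr), cell pool and replicate number as terms and the quasi-likelihood test. P-values were two-sided and adjusted by the Benjamini-Hochberg method over all 14566 genes tested, with a threshold of 0.05. Standard errors were derived from the log2 difference and the F statistic. The common dispersion was 0.0606, a coefficient of variation of 24.6%, with 4 residual degrees of freedom. At 27852754 to 54287621 counts per library, this spread and not counting error limits all but the lowest genes. Levels are CPM and are not comparable between genes, as no gene length enters.

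The replicate numbers were checked for pairing across pools. After the pool mean was removed, 9 pairs of libraries with the same number correlated at 0.324 to 0.621 across genes and 18 pairs with other numbers at -0.485 to 0.0167. Removing the pool mean makes positive values for the same number force lower ones for other numbers. The ranges are therefore not separate observations. The labels do not say what a number marks.

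The comparison, the gene lists, the motifs and the genes named were chosen with earlier results of these data known. Named genes were AARS, HIF1A, EPAS1, ARNT, VHL, TXNIP and ARRDC4, the 12 largest rises and 12 largest falls, the 10 genes most correlated with AARS, and members of each list with the smallest p or a defining role; some members are not reported here. HIF1A, EPAS1, ARNT and VHL check the pools. The endoplasmic reticulum stress element was added after the data were seen. Alternatives were DESeq2 1.42.0, other scalings, other filters, the fit without pool, the 6 libraries alone, and fits without each library or pool. Symbols were matched to GENCODE lifted to GRCh37 (20654 by the same symbol, 1399 by an older one, 1388 not matched), and promoters to RefSeq. The test of number 1 against number 3 was checked, in edgeR and DESeq2, on counts simulated from the fit. The other contrasts were not checked in this way. Figures were drawn with matplotlib 3.10.9.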

Additional observations from a re-analysis of the deposited data

Results flagged for a closer look

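The interferon response list moved in opposite directions between the pools: the median log2 difference between libraries numbered 1 and 3 was 2.00 (1.995) in the control pool and -0.941 in the HIF-2α pool, with 33 and 4 of 34 members above 0. Each pool holds 1 library per number, so this difference was not tested. Over all pools the list had 1 member called higher and 1 lower by edgeR, and without library HIF-2α 1 it had 8 called higher.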

How the results depend on the processing

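The number of genes called between numbers 1 and 3 depended on the fit, while directions held. Among the called genes that the text names and further called list members, none changed sign under any alternative. Of 95 such genes, DESeq2 and edgeR with DESeq2 size factors kept all calls, library totals without TMM factors 93, the libraries numbered 1 and 3 alone 83, and the fits without 1 library between 62 (without HIF-1α 1) and 81 (without HIF-1α 3). Against 846 genes higher and 971 lower in number 1, leaving out 1 library gave 274 to 826 higher and 333 to 805 lower. Without the control, HIF-1α or HIF-2α pool the counts were 178 and 345, 425 and 443, and 485 and 595. The libraries numbered 1 and 3 alone gave 541 higher, the filter of at least 10 CPM 493 and 486 (fewer genes were tested), and DESeq2 1332 higher. The fit that did not keep the pool as a replicate block, so that libraries were not paired, called 260 higher and 301 lower, all 561 among the genes reported. DESeq2 called 1108 higher and 1088 lower between numbers 1 and 2 and 842 and 1036 between 2 and 3, against 538, 484, 220 and 417. ARNT, not called, had a log2 difference of 0.008 without the HIF-1α pool and -0.32 otherwise. Causes of these shifts were not tested. With 1 library per pool and number, a difference that exists in 1 pool only cannot be separated from the spread between libraries.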
